A study of Mus musculus with 89 samples.

Results

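The lung expression of 10 genes of T cells and their subsets was followed in mice challenged with the mould Aspergillus fumigatus (Af), exposed to ozone, or both. The genes were Cd3e, Cd3g, Cd4, Cd8a, Icos, Ctla4, Foxp3, Il2ra, Gata3 and Tbx21, taken as a fixed list and each read by its brightest probe set over all arrays. All 10 were among the 17097 genes that the array measured, and all 10 were among the 15065 that passed the filter on dim signals. The mean of Cd4 was higher after Af challenge than in the matched unchallenged lungs in all 12 comparisons by strain and exposure, by 0.07 to 0.66 on the log2 scale. Of these, only the difference in C57BL/6 lungs 96 h after Af with ozone passed the limma test (adjusted p = 0.041), close to the threshold. Of 450 planned tests of members 6 passed, against 3.47% of the tests of all genes. After ozone alone 0 of 30 did, against 0.0465%.

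The study profiled lungs of male mice 7 to 8 weeks old on 89 microarrays. The mice were SP-D-/-, in which the gene Sftpd for surfactant protein D is disrupted, or wild-type BALB/c or C57BL/6. They were sensitized to Af by intraperitoneal injections on days 0 and 7, challenged intranasally on day 13, or left without Af, and every mouse breathed air or 3 ppm ozone for 2 h and was killed 12 h later. Challenged mice were sampled 24 h after Af with air, 96 h after Af with ozone, or 168 h after Af with air or with ozone. Other groups had ozone alone or air alone. The numbers of arrays, from 24 h to 168 h after Af and then ozone alone and air alone, were 6, 6, 5, 4, 4 and 5 for SP-D-/-, 5, 6, 6, 4, 2 and 5 for BALB/c and 4, 5, 4, 6, 6 and 6 for C57BL/6. No group joined 24 h with ozone or 96 h with air. RNA came from the left lobe of perfused lungs. The labels do not say how the SP-D-/- strain was bred, nor that each array was a separate animal, so p-values measure only the spread between these arrays, which may be technical.

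T cells are marked by the CD3 chains, which carry the signal of the antigen receptor into the cell. Helper T cells bear the coreceptor CD4 and cytotoxic T cells CD8. Helper cells differ by the transcription factor that sets their programme: GATA3 in Th2 cells, which drive allergic airway inflammation through interleukins such as IL-13, T-bet (Tbx21) in Th1 cells, and FOXP3 in regulatory T cells, which restrain other T cells. ICOS and CTLA-4 are receptors of activated T cells that raise and limit their responses. In lung homogenate, fewer cells of a type and less RNA per cell cannot be told apart, and several of these genes are also used by innate lymphoid cells, NK cells or myeloid cells.

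All values are log2 signals that the depositors had already normalized, with the same median of 4.904 on every array. A gene counted as detected on an array above a log2 signal of 4.45, the 40th percentile of all signals. Lung tissue markers were bright in every group, with a mean log2 signal of 9.62 to 10.81 by group over the 5 measured. Sftpd and an index of 40 genes that differ between the strains were set against the labels. The 29 SP-D-/- arrays whose labels held had Sftpd at 4.42 to 7.76, and the wild-type arrays whose labels held had it at 9.61 to 11.24. Which part of Sftpd was deleted, and whether its 1 probe set lies there, is not given in the sources used here. On 6 arrays either measure went against the label: 2 labelled BALB/c 24 h after Af, 1 labelled BALB/c 168 h with ozone, 1 labelled C57BL/6 and 1 labelled SP-D-/- 96 h with ozone, and 1 labelled C57BL/6 168 h with ozone. The last was borderline: its index of 0.015 barely had the wrong sign, and its Sftpd of 9.20 did not by itself go against the label. The BALB/c arrays 24 h after Af were doubted by Sftpd alone, at 8.79 and 7.68. Their indexes of 0.167 and 0.556 had the sign of BALB/c, and the 8.79 was close to the limit of 9. Results are given with all arrays and, where the call changed, without the 6 doubted arrays.

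A further technical measure moved with several members. The mean log2 signal of 9 hybridization control probe sets, here called the control level, ran from 9.93 to 12.4 across arrays, although these transcripts are added to each sample and not made by the lung. Within groups, Cd3g fell with the control level over the 89 arrays (Pearson r = -0.69, Spearman rho = -0.67), as did Tbx21 (r = -0.63, rho = -0.63) and Foxp3 (r = -0.52, rho = -0.55), while Icos rose with it (r = 0.67, rho = 0.66). Permutation p adjusted over the 10 members was 2.5e-05 for these 4, from the smallest p of 1e-05 that 100000 permutations can give. Without the 2 arrays farthest from the median control level, r was -0.74, -0.61, -0.61 and 0.67 for Cd3g, Tbx21, Foxp3 and Icos. Ctla4 (r = 0.44), Il2ra (r = 0.37) and Gata3 (r = -0.34) followed it less closely, with adjusted permutation p = 0.00066, 0.00563 and 0.00576. Cd3e (r = 0.16, adjusted p = 0.258), Cd4 (r = 0.15, adjusted p = 0.304) and Cd8a (r = -0.12, adjusted p = 0.258) did not pass the test. For this reason each result on a member gene below is also given, where its call changed, from a fit without the 6 arrays in which the control level was a covariate, called the adjusted fit.

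**Figure D1:**
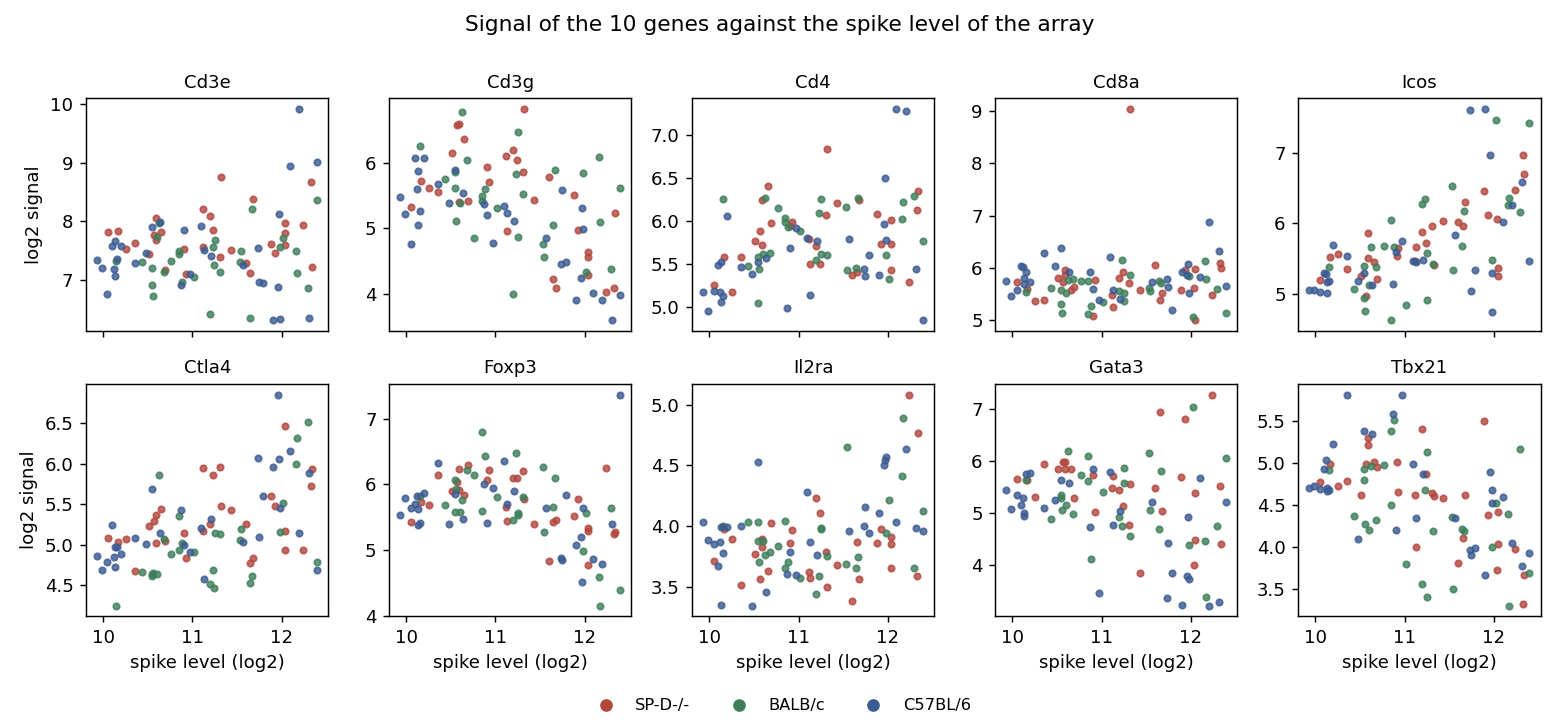
Log2 signal of each of the 10 genes (vertical axes, 1 panel a gene) against the control level of the array (horizontal axes, marked spike level, mean log2 signal of 9 hybridization control probe sets). Each point is 1 of 89 arrays, coloured by strain. Within groups Cd3g falls with the control level (r = -0.69) and Icos rises (r = 0.67), while Cd4 shows little slope (r = 0.15).

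In RefSeq's annotation of the GRCm38.p6 build, Cd3g (chr9:44969572-44980431) and Cd3e (chr9:44998735-45009663) are close together on chromosome 9, and Ctla4 (chr1:60909025-60915832) and Icos (chr1:60960773-61000322) on chromosome 1. Cd8a (chr6:71373427-71379171) and Cd4 (chr6:124864693-124888247) are both on chromosome 6 but far apart. Gata3 (chr2:9857078-9887953) and Il2ra (chr2:11642792-11693194) are on chromosome 2, Foxp3 (chrX:7579676-7595243) on X and Tbx21 (chr11:97098007-97115331) on chromosome 11.

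Promoters of 3 members with differing patterns are shown, each as the 250 bases before the RefSeq start, 5′ to 3′, with the matches to the motifs searched in capitals. Ctla4 (chr1:60908775-60909024, plus strand) was called when responses were averaged over strains, Cd3g (chr9:44980432-44980681, minus strand) was the member most tied to the control level, and Cd8a (chr6:71373177-71373426, plus strand) had 1 array far above the others.
Ctla4: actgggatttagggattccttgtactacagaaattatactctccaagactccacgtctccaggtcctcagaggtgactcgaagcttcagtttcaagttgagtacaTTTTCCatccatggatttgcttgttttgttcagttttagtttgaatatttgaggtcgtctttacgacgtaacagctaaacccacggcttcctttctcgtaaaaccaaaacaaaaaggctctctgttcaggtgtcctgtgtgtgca
Cd3g: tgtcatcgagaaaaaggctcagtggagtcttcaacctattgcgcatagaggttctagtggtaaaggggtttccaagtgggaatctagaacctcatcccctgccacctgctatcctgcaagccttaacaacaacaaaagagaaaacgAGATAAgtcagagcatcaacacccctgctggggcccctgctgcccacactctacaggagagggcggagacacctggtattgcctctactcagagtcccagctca
Cd8a: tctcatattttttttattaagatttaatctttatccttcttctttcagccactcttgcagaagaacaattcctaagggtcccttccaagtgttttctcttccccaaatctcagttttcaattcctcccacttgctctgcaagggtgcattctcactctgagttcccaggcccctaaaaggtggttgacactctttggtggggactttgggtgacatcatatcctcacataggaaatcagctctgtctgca
The motifs were GGAAAA for NFAT, AGATAA for GATA factors, TGTGGT for RUNX, TGTTTA for forkhead and GGTGTGA for T-box factors, read on both strands. The capitals in Ctla4 mark an NFAT match on the minus strand and those in Cd3g a GATA match, while Cd8a had no match in this window. RefSeq sequences were matched for 8 of the 10 members, and Cd4 and Icos were not analysed here. Over the 8, NFAT was found in Ctla4 and Foxp3, GATA in Cd3g and Foxp3, forkhead in Foxp3, and RUNX and T-box in 0. Of 32851 promoters, 20.4% held the NFAT letters, 9.99% GATA, 12% forkhead, 14% RUNX and 3.33% T-box. The matches describe letters only.

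Signal strength differed between members and set what could be measured. Cd3e, Cd4, Cd8a and Icos were detected on all 89 arrays, Ctla4 on 88, Foxp3 on 87, Cd3g on 75, Gata3 on 74, Tbx21 on 52 and Il2ra on only 9. Il2ra, which encodes the alpha chain of the IL-2 receptor, therefore sat in the noise of the array in nearly every sample, and its values carry little weight. For Cd4, Cd8a, Icos and Il2ra there were other, dimmer probe sets, while the rest had 1 each. For every member, the 18 group means formed a near-continuous order. Of the 17 steps between neighbours in that order, none exceeded the pooled SD within groups, except the top step of Cd8a, whose gap of 0.48 was set by 1 array.

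The 45 planned comparisons were between exposures in each strain, between strains in each exposure, and between strains in their responses. Of the 450 tests of members they gave, 6 were called at a Benjamini-Hochberg adjusted p under 0.05 in limma, all of them higher. The same rule called 3.47% of all tests over the 15065 genes, a larger share than that of the members. An unadjusted p under 0.05 was found in 51 member tests. The shares of all genes given here are at the adjusted threshold, so counts at an unadjusted p have no such share beside them. Without the 6 arrays 12 were called, 8 higher and 4 lower, against 4.57% of all tests, and in the adjusted fit 13, 11 higher and 2 lower, against 2.63% of all tests.

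The CD3 chains showed no shared course. Cd3e, the invariant epsilon chain, was highest in C57BL/6 lungs 24 h after Af (8.45 ± 0.61, SD, n = 4) and lowest in BALB/c lungs after ozone alone (7.00 ± 0.37, n = 2), a range of 1.45 against a pooled SD of 0.54. Cd3g, the gamma chain, was highest in BALB/c lungs 168 h after Af with air (5.88 ± 0.50, n = 6) and lowest in SP-D-/- lungs after ozone alone (4.52 ± 0.69, n = 4), a range of 1.35 against a pooled SD of 0.68. The group means of the pair were nearly unrelated over the 18 groups (r = 0.035).

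In C57BL/6 mice 24 h after Af, Cd3e read 9.002, 7.91, 8.94 and 7.93, against a low of 7.37, a median of 7.60 and a high of 8.00 after air alone. The groups overlapped, and the difference of 0.79 ± 0.34 (SE) was not called with all arrays (limma adjusted p = 0.0964, with 16.2% of genes called). It was called without the 6 arrays (adjusted p = 0.024, 23.7% of genes called) and in the adjusted fit (0.80 ± 0.27, adjusted p = 0.0313, 16% called). The matching differences were -0.22 ± 0.32 in SP-D-/- and -0.05 ± 0.34 in BALB/c lungs, where no call was made. After ozone alone, Cd3e differed from air alone by -0.30 ± 0.36 in SP-D-/-, -0.44 ± 0.45 in BALB/c and -0.63 ± 0.31 in C57BL/6 lungs, none of which passed the test.

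Of the 2 CD3 members, Cd3g alone was called with all arrays, and only in comparisons of SP-D-/- with C57BL/6 mice 96 h after Af with ozone. SP-D-/- lungs ranged from 4.10 to 6.59 with a median of 6.02, and C57BL/6 lungs read 4.85, 4.998, 5.31, 3.61 and 4.50. The groups overlapped through 1 low SP-D-/- array, and Cd3g was higher in SP-D-/- lungs by 1.15 ± 0.41 (adjusted p = 0.0434, with 16.2% of genes called). The control level was lower in these SP-D-/- arrays (10.98 ± 0.39, SD, n = 6) than in the C57BL/6 arrays (11.92 ± 0.28, n = 5), and in the adjusted fit the difference was 0.45 (adjusted p = 0.451, 4.65% called). The adjusted fit called Cd3g higher in SP-D-/- lungs 24 h after Af than after air alone, by 0.92 ± 0.28 (adjusted p = 0.0279, 7.17% called), where the difference with all arrays was 0.50 ± 0.41.

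The difference of Cd3g between 96 h after Af with ozone and ozone alone was also unlike in these strains. After ozone alone the SP-D-/- lungs read 4.30, 5.55, 4.23 and 4.03, and the C57BL/6 lungs ran from 3.91 to 5.48 with a median of 5.13. The difference was thus 1.27 ± 0.43 in SP-D-/- and -0.31 ± 0.41 in C57BL/6 lungs, and the gap between them was 1.59 ± 0.59 (adjusted p = 0.039, with 27.4% of genes called). The control level after ozone alone was 11.57 ± 0.85 in SP-D-/- (SD, n = 4) and 10.41 ± 0.75 in C57BL/6 lungs (n = 6). In the adjusted fit the gap was 0.03 ± 0.46 (adjusted p = 0.987, 0.724% called).

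Cd8a, the alpha chain of CD8, varied little outside 1 array. Its group means ran from 5.26 in BALB/c lungs after ozone alone to 6.10 in C57BL/6 lungs 168 h after Af with ozone, and then to 6.58 in SP-D-/- lungs 168 h after Af with ozone. The 4 SP-D-/- arrays of that last group read 5.61, 9.04, 5.58 and 6.10, against 5.97, 5.39, 5.38 and 5.49 after ozone alone. The groups overlapped, and the high array alone set them apart: Cd8a was higher by 1.02 ± 0.31 (adjusted p = 0.0495) with all arrays, and by 0.21 without that array. In this comparison 3.18% of genes were called, and 9.99% in the adjusted fit, where Cd8a differed by 1.04 ± 0.31 (adjusted p = 0.0198). The other Cd8a probe sets gave differences of 0.56 and 0.32.

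The array with Cd8a at 9.04, SP-D-/- replicate 3 at 168 h after Af with ozone, also stood out in genes of developing T cells. Rag1, which encodes a subunit of the recombinase that assembles antigen receptor genes, read 8.12 there, against a median of 4.27 and a highest value of 6.64 over the other arrays. Dntt, the polymerase that adds bases at receptor joints, read 8.98 there, against a median of 5.12 and a highest value of 6.86 over the others. Of a list of 9 such genes, drawn up after this array had been seen, 6 were at their highest of all 89 arrays. Cd3e on the same array (8.75) and Cd3g (6.82) were the highest of their group, and Cd4 (6.84) as well. The highest Rag1 value of the other arrays, 6.64, was in the same group. Genes of stratified squamous epithelium were high on this array too, such as Krt4 (10.73, median 4.83 over the others) and Lor (9.43, median 2.72). Of 7 such genes 0 were at their highest there. Among the other arrays of the group, Krt4 reached 11.23 and Lor 10.5. The part of transcripts of either kind in the other differences of that group was not tested.

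**Figure D2:**
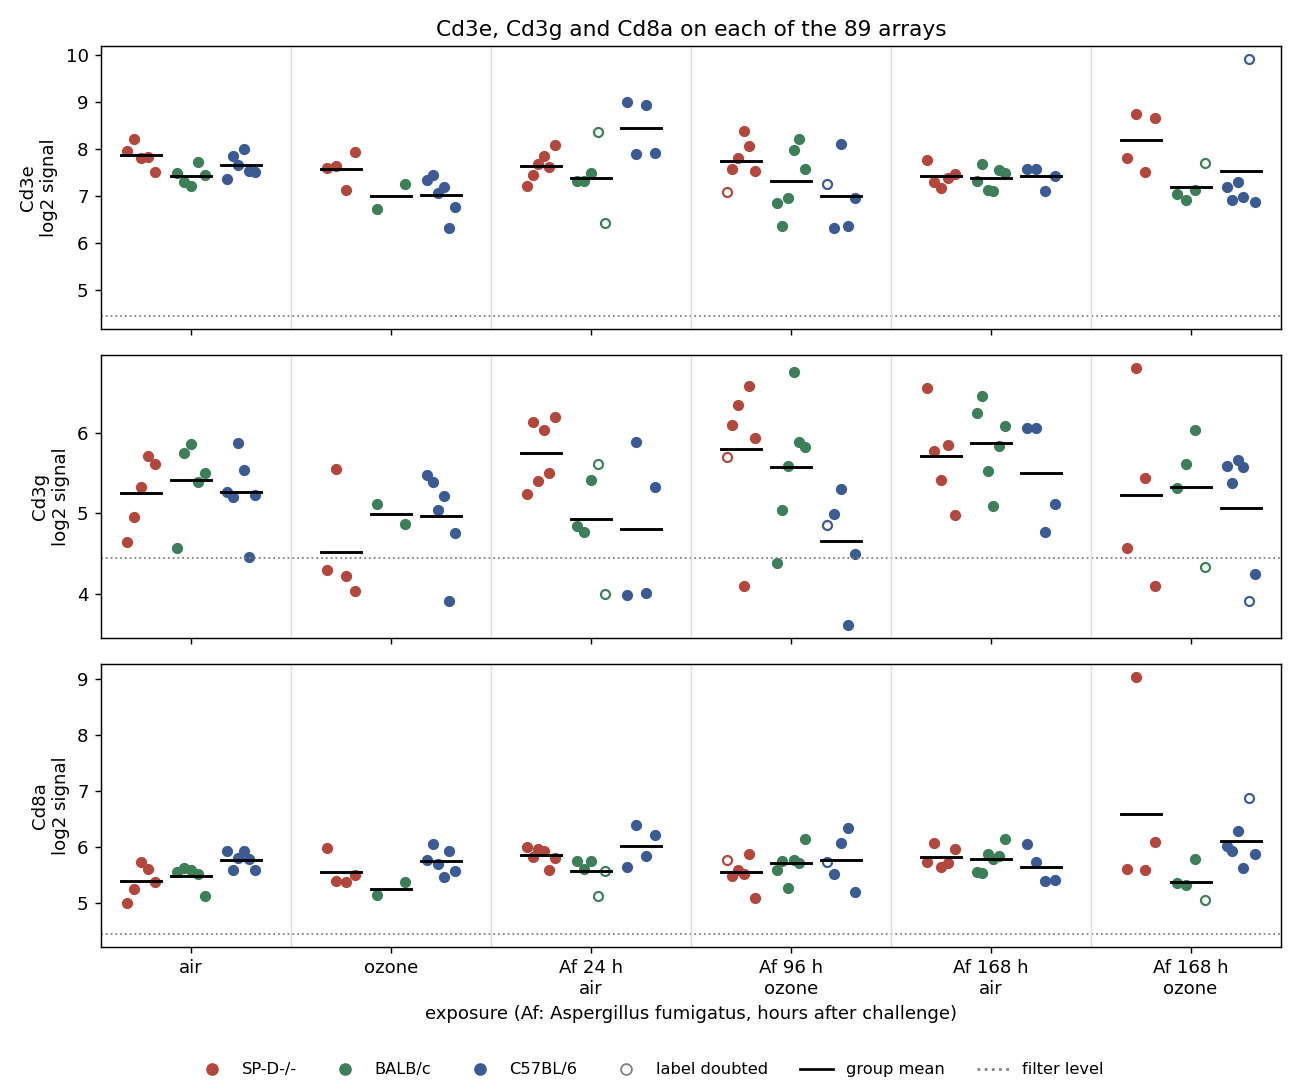
Log2 signal (vertical axes) of Cd3e, Cd3g and Cd8a on each array, in 6 columns by exposure, from air and ozone alone on the left to the latest Af groups on the right, each showing the strains in the order SP-D-/-, BALB/c, C57BL/6. Points are arrays, open where the strain label is in doubt, black bars are group means and the dotted line, marked filter level, is the detection level of 4.45. The single SP-D-/- array at 9.04 stands above every other Cd8a value.

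Cd4, the coreceptor of helper T cells that some myeloid cells also carry, was called in 3 comparisons averaged over strains with all arrays, more than any other member. In the adjusted fit Cd3g and Tbx21 were each called in 3 such comparisons as well. Its group means ran from 5.19 ± 0.17 in C57BL/6 lungs after ozone alone (SD, n = 6) to 6.23 ± 0.46 in SP-D-/- lungs 168 h after Af with ozone (n = 4). All 12 differences from the matched unchallenged groups were positive. Af groups of a strain share their controls, however, so the 12 values are not independent.

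The clearest single comparison was in C57BL/6 mice 96 h after Af with ozone. There Cd4 read 5.80, 5.79, 6.50, 5.44 and 5.61, against a low of 4.95, a median of 5.18 and a high of 5.38 after ozone alone. The groups did not overlap, and Cd4 rose by 0.64 ± 0.25 (adjusted p = 0.041, with 36.4% of all genes called in this comparison). The call was close to the threshold: it was made in 4 of 11 fits that left out 1 array, where the difference stayed between 0.47 and 0.73, and in the adjusted fit the difference was 0.56 (adjusted p = 0.146).

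In the other strains Cd4 differed by similar amounts without being called. At 96 h after Af with ozone the difference from ozone alone was 0.53 ± 0.27 in SP-D-/- and 0.52 ± 0.34 in BALB/c lungs. At 24 h after Af with air, the difference from air alone was 0.47 ± 0.25 in SP-D-/-, 0.40 ± 0.26 in BALB/c and 0.46 ± 0.27 in C57BL/6 lungs. At 168 h with air it was 0.42 ± 0.26, 0.47 ± 0.25 and 0.39 ± 0.27 in the same order of strains. The BALB/c lungs 168 h after Af with ozone gave the smallest difference of the 12, 0.07 ± 0.36, and the SP-D-/- lungs of that exposure the largest, 0.66 ± 0.29.

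A comparison of responses averaged over the 3 strains, added after the values were seen, placed Cd4 past the threshold at 3 of the 4 Af exposures. Averaged over strains, Cd4 was higher by 0.44 ± 0.15 at 24 h after Af (adjusted p = 0.015, 44.3% of genes called), by 0.43 ± 0.15 at 168 h with air (adjusted p = 0.0455, 14% called) and by 0.56 ± 0.17 at 96 h with ozone (adjusted p = 0.0153, 13.7% called). At 168 h with ozone the difference was 0.42 ± 0.17 (adjusted p = 0.089, 15.4% called). The adjusted fit made the same calls, with 0.47 ± 0.15 (30.7% of genes called), 0.41 ± 0.14 (20% called) and 0.54 ± 0.16 (19.4% called). The calls at 24 h and at 168 h with air were lost, however, with the control level as covariate on all 89 arrays (0.38, adjusted p = 0.0562, and 0.40, adjusted p = 0.0621). The call at 96 h with ozone was kept there (0.52, adjusted p = 0.023). The 168 h call was made in 10 of 31 fits without 1 array (0.39 to 0.47) and was lost with the replicate number as a block (0.42, adjusted p = 0.0511). The 24 h call was lost without C57BL/6 replicate 4 at 24 h (0.28, adjusted p = 0.0993), an array with Cd4 at 7.31 against 4.85 to 5.81 on the others of its group. The dimmer second Cd4 probe set, which was above the detection level on 0 arrays, differed by -0.001 at 96 h. The 96 h call was lost without BALB/c replicate 1 after ozone alone, 1 of the 2 arrays of that group.

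Icos, the inducible costimulator of activated T cells, rose in BALB/c lungs 24 h after Af. The challenged lungs read 5.67, 6.52, 6.04, 7.42 and 6.27, against 5.33, 5.06, 4.94, 5.12 and 4.62 after air alone. The groups did not overlap, and the difference was 1.37 ± 0.39 (adjusted p = 0.0147, with 12.1% of genes called in this comparison). Of these arrays, those at 7.42 and 6.27 carry labels doubted by Sftpd alone, while their strain genes had the sign of BALB/c. Without them and the other doubted arrays the difference was 1.06 (adjusted p = 0.132, 5.79% called), and in the adjusted fit 0.92 ± 0.33 (adjusted p = 0.0697, 8.97% called).

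Elsewhere single arrays stood apart in Icos. C57BL/6 lungs held 1 array at 7.62 after ozone alone, where the other 5 lay between 5.03 and 5.17, and 1 array at 7.60 after air alone, where the other 5 lay between 5.003 and 5.59. Their control levels were 11.9 and 11.73. The C57BL/6 difference at 24 h after Af was -0.10 ± 0.40 and that in SP-D-/- lungs 0.48 ± 0.38, and neither was called. Averaged over strains, Icos was higher at 24 h by 0.58 ± 0.23 (adjusted p = 0.0309). The call was lost without the 6 arrays (0.48, adjusted p = 0.078) and in the adjusted fit (0.18, adjusted p = 0.487). In C57BL/6 lungs 96 h after Af with ozone, where the control level was highest, Icos differed by 0.04 ± 0.38 with all arrays and by -0.95 ± 0.33 in the adjusted fit, which called it lower (adjusted p = 0.0324, 16.9% of genes called in that fit).

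The probe sets of Icos disagreed. At 96 h after Af with ozone the second probe set, detected on 82 of 89 arrays, differed from ozone alone by 1.30 in SP-D-/-, 1.64 in BALB/c and 1.14 in C57BL/6 lungs, where the brightest probe set, used above, gave -0.08, 1.11 and 0.04. The third gave -0.75 in SP-D-/-, 0.28 in BALB/c and 0.04 in C57BL/6 lungs. In BALB/c lungs at 24 h, where the brightest gave the called rise, the second differed by 0.83 and the third by 0.29. These differences of means with all arrays have no test, and the size and sign at 96 h depended on the probe set.

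Ctla4, the inhibitory receptor that competes with CD28 for its ligands, was highest in SP-D-/- lungs 168 h after Af with ozone (5.77 ± 0.48, SD, n = 4) and lowest in BALB/c lungs after ozone alone (4.56 ± 0.13, n = 2). The SP-D-/- lungs read 6.47, 5.48, 5.42 and 5.73 at 168 h after Af with ozone, against 5.17, 4.68, 4.78 and 4.93 after ozone alone. These groups did not overlap, yet the difference of 0.88 ± 0.35 was not called (adjusted p = 0.149). BALB/c lungs read 4.91, 4.61, 5.07 and 5.52 at that exposure, against 4.65 and 4.46, and the difference was 0.47 ± 0.42. C57BL/6 lungs ran from 4.84 to 6.85 with a median of 5.12, against 4.69 to 5.96 with a median of 4.82, and the difference was 0.40 ± 0.28. Averaged over strains, Ctla4 rose by 0.58 ± 0.21 at this exposure (adjusted p = 0.0419). That call was made in 2 of 10 alternative fits and in 13 of 26 fits without 1 array. Without the 6 arrays it was lost (0.55, adjusted p = 0.0843), while Ctla4 averaged over strains was called higher at 96 h with ozone.

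**Figure D3:**
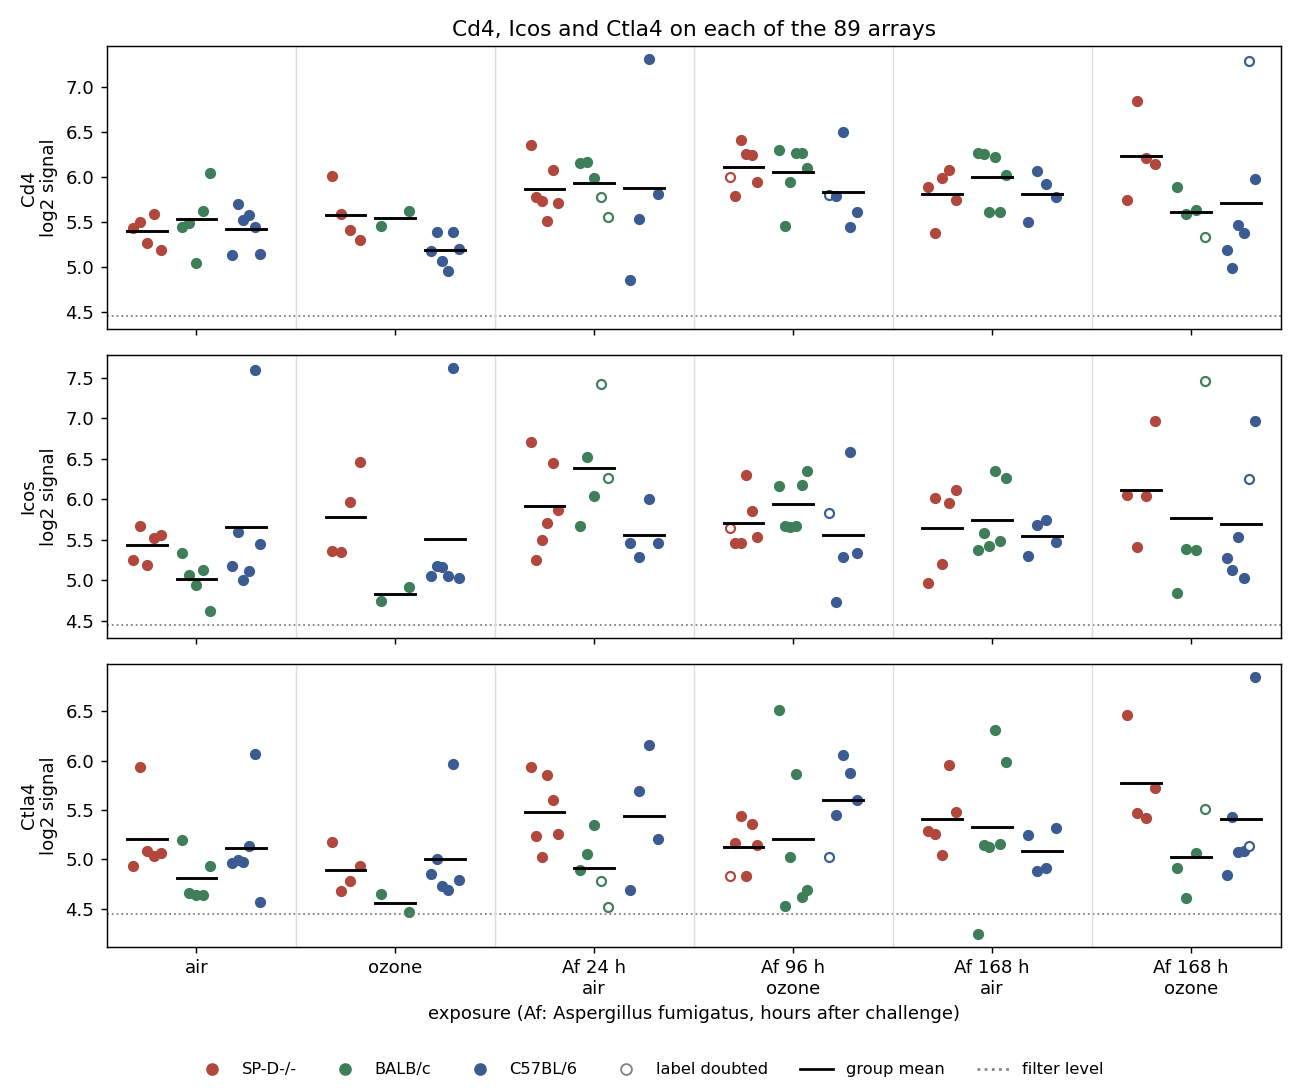
Log2 signal (vertical axes) of Cd4, Icos and Ctla4 on each array, in 6 columns by exposure, from air and ozone alone on the left to the latest Af groups on the right, each showing the strains in the order SP-D-/-, BALB/c, C57BL/6. Points are arrays, open where the strain label is in doubt, and black bars are group means. In C57BL/6 lungs Cd4 lies between 5.44 and 6.50 at Af 96 h with ozone, and between 4.95 and 5.38 after ozone alone.

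Foxp3, the factor that defines regulatory T cells, was highest in C57BL/6 lungs 24 h after Af (6.11 ± 1.04, SD, n = 4) and lowest in BALB/c lungs 168 h after Af with air (5.15 ± 0.69, n = 6). No comparison of Foxp3 was called with all arrays. At 24 h after Af, C57BL/6 lungs read 7.37, 5.85, 4.87 and 6.36, against a low of 4.87, a median of 5.41 and a high of 5.71 after air alone, a difference of 0.74 ± 0.33. The BALB/c lungs read 6.14, 6.26, 6.80, 4.39 and 5.46, against 5.27, 5.69, 5.58, 5.58 and 5.59, a difference of 0.27 ± 0.32. The lowest 2 of these BALB/c arrays, at 4.39 and 5.46, are those with doubtful labels.

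The adjusted fit called Foxp3 higher 24 h after Af in C57BL/6 lungs (0.99 ± 0.28, adjusted p = 0.00898) and in BALB/c lungs (0.95 ± 0.30, adjusted p = 0.0359). Averaged over strains, the difference was 0.43 ± 0.18 with all arrays (adjusted p = 0.0513) and 0.80 ± 0.16 in the adjusted fit (adjusted p = 9.1e-05). The adjusted fit also called Foxp3 lower in BALB/c lungs at 168 h than at 24 h after Af (log2 change -1.10 ± 0.30, adjusted p = 0.0323, 2.42% of genes called), where the difference with all arrays was -0.66 ± 0.31 (adjusted p = 0.22). That fall and the strain-averaged rise at 24 h were also called without the 6 arrays alone.

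Il2ra gave group means between 3.61 and 4.20, all below the detection level. Among the 3 fits its called differences appeared without the 6 arrays, 96 h after Af with ozone, where its log2 difference from C57BL/6 lungs was -0.56 in SP-D-/- (adjusted p = 0.0432, 25.5% of genes called) and -0.57 in BALB/c lungs (adjusted p = 0.0403, 17.5% called). The SP-D-/- minus C57BL/6 difference in response to that exposure was called there too (-0.79, adjusted p = 0.0316, 35.7% called), against -0.68 ± 0.29 with all arrays (adjusted p = 0.0639). At such signals these are differences within the background of the array.

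Gata3, the Th2 factor, which innate lymphoid cells and airway epithelium also use, spread more than any other member, with a pooled SD within groups of 0.76. It was highest in SP-D-/- lungs after ozone alone (6.16 ± 1.26, SD, n = 4) and lowest in C57BL/6 lungs 96 h after Af with ozone (4.20 ± 0.82, n = 5). At 96 h after Af with ozone, SP-D-/- lungs ran from 5.02 to 5.97 with a median of 5.604, and C57BL/6 lungs read 5.21, 3.73, 4.92, 3.29 and 3.84. The groups overlapped only through the C57BL/6 array at 5.21, whose strain label is in doubt. Gata3 was higher in SP-D-/- lungs by 1.31 ± 0.45 (adjusted p = 0.0367, with 16.2% of genes called in this comparison), and in the adjusted fit by 1.21 ± 0.45 (adjusted p = 0.111).

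After ozone alone the same strain difference had a like size. SP-D-/- lungs read 4.47, 5.93, 6.95 and 7.27, and C57BL/6 lungs ran from 3.23 to 5.44 with a median of 5.15. The groups overlapped and the difference of 1.27 ± 0.48 was not called with all arrays (adjusted p = 0.156, 0.797% of genes called), while the adjusted fit called it at 1.79 ± 0.44 (adjusted p = 0.0273, 0.956% called). Against unchallenged lungs, Gata3 was called in 0 Af comparisons. Its differences at 24 h were -0.14 ± 0.45 in SP-D-/-, 0.40 ± 0.47 in BALB/c and 0.54 ± 0.48 in C57BL/6 lungs, and at 96 h with ozone -0.64 ± 0.48, -0.27 ± 0.60 and -0.69 ± 0.45.

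Tbx21, the Th1 factor that NK cells use as well, was above the detection level on 52 arrays. It was highest in C57BL/6 lungs 168 h after Af with air (5.21 ± 0.44, SD, n = 4) and lowest in BALB/c lungs after ozone alone (3.84 ± 0.61, n = 2). No comparison of Tbx21 was called with all arrays. The C57BL/6 lungs read 4.93, 5.23, 5.82 and 4.87 at 168 h with air, against a low of 3.97, a median of 4.51 and a high of 5.35 after air alone, a difference of 0.68 ± 0.35 (adjusted p = 0.46). The adjusted fit called Tbx21 higher in C57BL/6 lungs 168 h after Af with ozone than after ozone alone, by 0.93 ± 0.25 (adjusted p = 0.0117, 9.62% of genes called). Averaged over strains it called Tbx21 higher at 24 h (0.65 ± 0.16, adjusted p = 0.00121), at 168 h with air (0.41 ± 0.15, adjusted p = 0.0476) and at 96 h with ozone (0.74 ± 0.17, adjusted p = 0.00111), where the differences with all arrays were 0.20, 0.22 and 0.47.

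**Figure D4:**
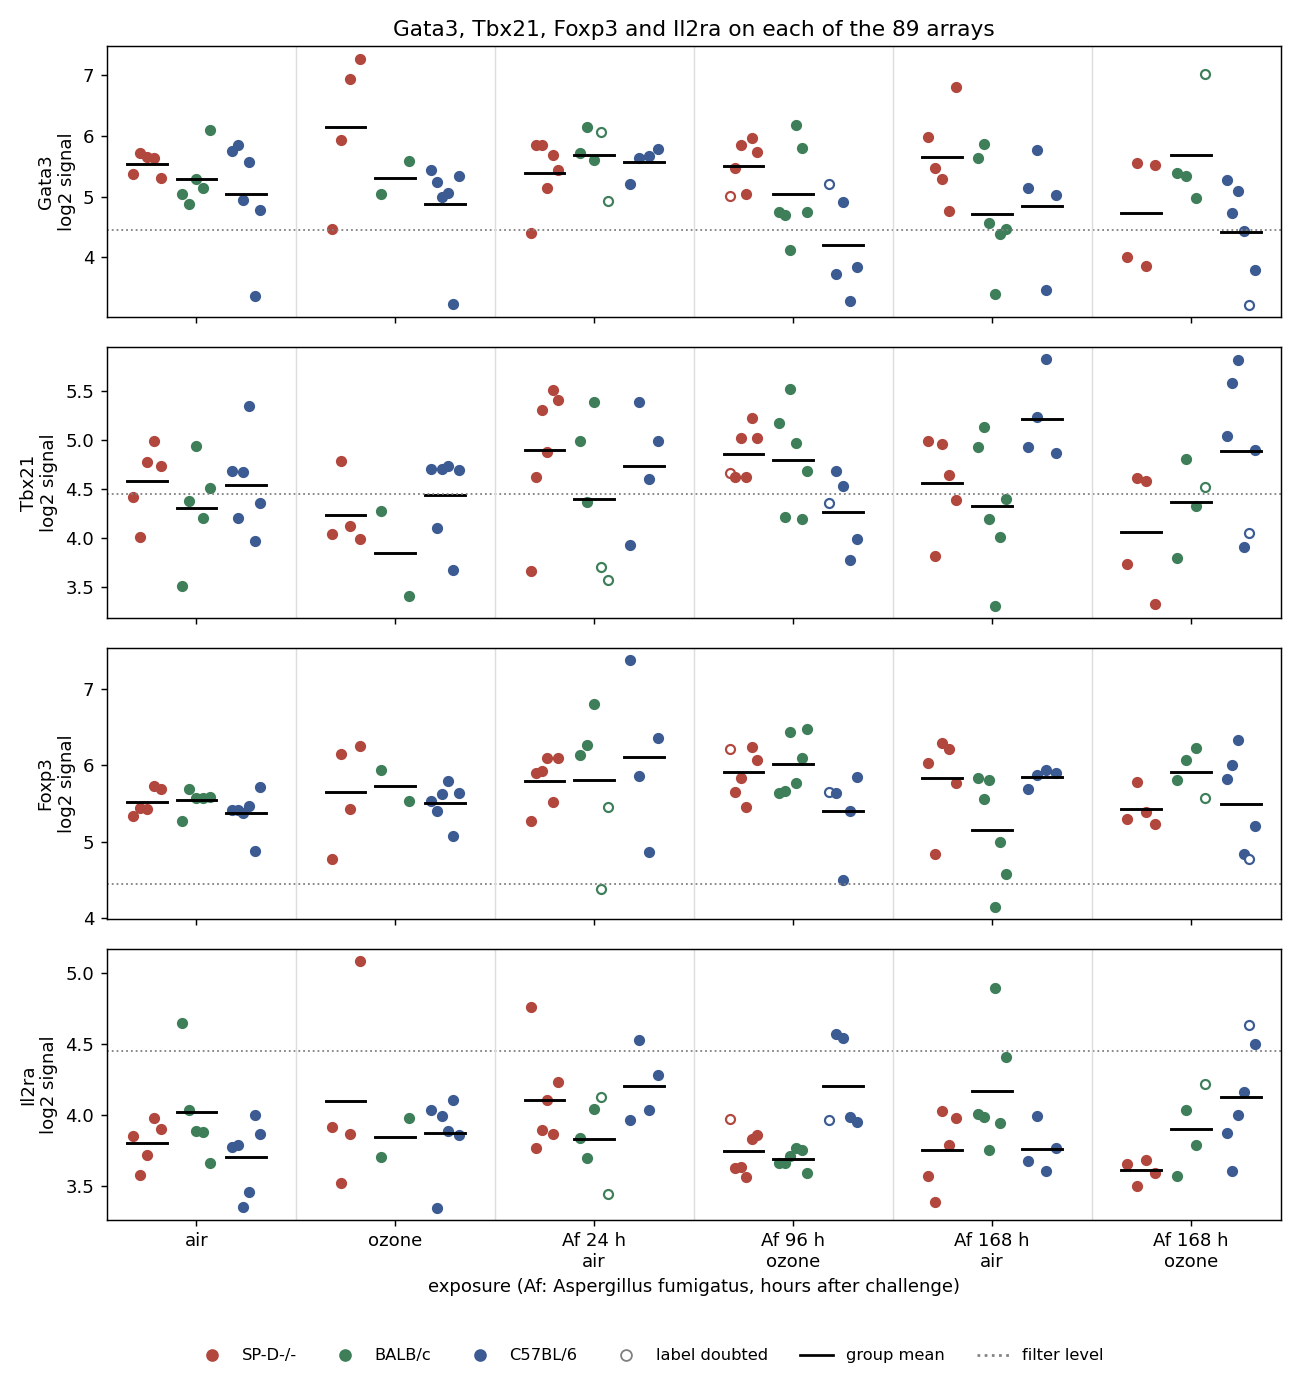
Log2 signal (vertical axes) of Gata3, Tbx21, Foxp3 and Il2ra on each array, in 6 columns by exposure, from air and ozone alone on the left to the latest Af groups on the right, each showing the strains in the order SP-D-/-, BALB/c, C57BL/6. Points are arrays, open where the strain label is in doubt, black bars are group means and the dotted line, marked filter level, is the detection level of 4.45. Il2ra group means lie below that line, between 3.61 and 4.20.

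Counted by comparison, ozone alone against air alone gave 0 calls among 30 tests of members, against a background of 0.0465% of genes called. The adjusted fit gave 0 calls as well. Of the 30 tests with all arrays, 1 had an unadjusted p under 0.05. At 24 h after Af with air 1 of 30 was called with all arrays, against 11%, and 4 in the adjusted fit, against 10.7%. At 96 h with ozone 1 of 30 was called, against 13%, and 1 in the adjusted fit, against 6.49%. At 168 h with ozone, set against ozone alone, 1 of 30 was called, against 6.57%, and 2 in the adjusted fit, against 6.54%. At 168 h with air 0 of 30 were called, against 1.42%, and 0 had an unadjusted p under 0.05. In the adjusted fit 1 was called there, Cd3g in BALB/c lungs (0.99 ± 0.28, adjusted p = 0.0413, 2.23% called in that strain), against 4.11%.

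The addition of ozone to Af was measured by 168 h with ozone against 168 h with air, and called 0 of 30 member tests, against 0.228% of genes. Of the 30, 4 had an unadjusted p under 0.05. In the adjusted fit 0 were called too, against 0.743%. The largest of these differences was Gata3 in BALB/c lungs, at 0.97 ± 0.48 (adjusted p = 0.62). The later against the earlier time, 168 h against 24 h after Af with air, called 0 of 30, against 1.97% of genes. Here too 4 had an unadjusted p under 0.05. In the adjusted fit 2 were called, against 2.03%: Foxp3 above, and Cd3g in BALB/c lungs, which was higher at 168 h by 1.204 ± 0.32 (adjusted p = 0.0323).

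Between strains, SP-D-/- against C57BL/6 called 2 of 60 member tests, Cd3g and Gata3 at 96 h after Af with ozone, against 2.94% of genes, and 3 in the adjusted fit, against 1.31%. BALB/c against C57BL/6 called 0 of 60, against 1.34%, and the adjusted fit called 0, against 2.66%. With all arrays 7 of the 60 had an unadjusted p under 0.05. In mice given air alone, all 20 strain differences of members lay between -0.64 and 0.49 and 0 were called. The adjusted fit called Cd3e as well: it was higher in SP-D-/- than in C57BL/6 lungs by 0.91 ± 0.29 at 96 h with ozone (adjusted p = 0.0466) and by 1.15 ± 0.28 at 168 h with ozone (adjusted p = 0.0221, 1.11% called), where with all arrays the differences were 0.74 ± 0.32 and 0.66 ± 0.34 and were not called. Both were also called without the 6 arrays alone. At 168 h this left out the borderline C57BL/6 array, with Cd3e at 9.91, and the C57BL/6 mean fell from 7.53 to 7.05. The SP-D-/- array with high Rag1 and Dntt, with Cd3e at 8.75, was kept. The difference in response between SP-D-/- and C57BL/6 called 1 member test, Cd3g above, against 4.62%, and 0 in the adjusted fit, against 0.415%. That between BALB/c and C57BL/6 called 0, against 0.00221%, and 0 in the adjusted fit, against 0.00664%. An unadjusted p under 0.05 was found there in 7 tests with all arrays.

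Averaged over strains, 5 of 60 member tests were called with all arrays, against 15% of genes over the same 6 comparisons, and 10 in the adjusted fit, against 14.5%. The 5 were Cd4 at 3 exposures, Icos at 24 h and Ctla4 at 168 h with ozone. The adjusted fit kept only the Cd4 calls and added Foxp3 at 24 h, the Tbx21 calls above, and Cd3g at 168 h with air (0.65 ± 0.17), 96 h with ozone (0.88 ± 0.19) and 168 h with ozone (0.73 ± 0.20). Cd3g, Tbx21 and Foxp3 fell with the control level within groups, and the mean control level was higher in most Af groups than in their controls. For these genes the calls with all arrays and in the adjusted fit differ.

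**Figure D5:**
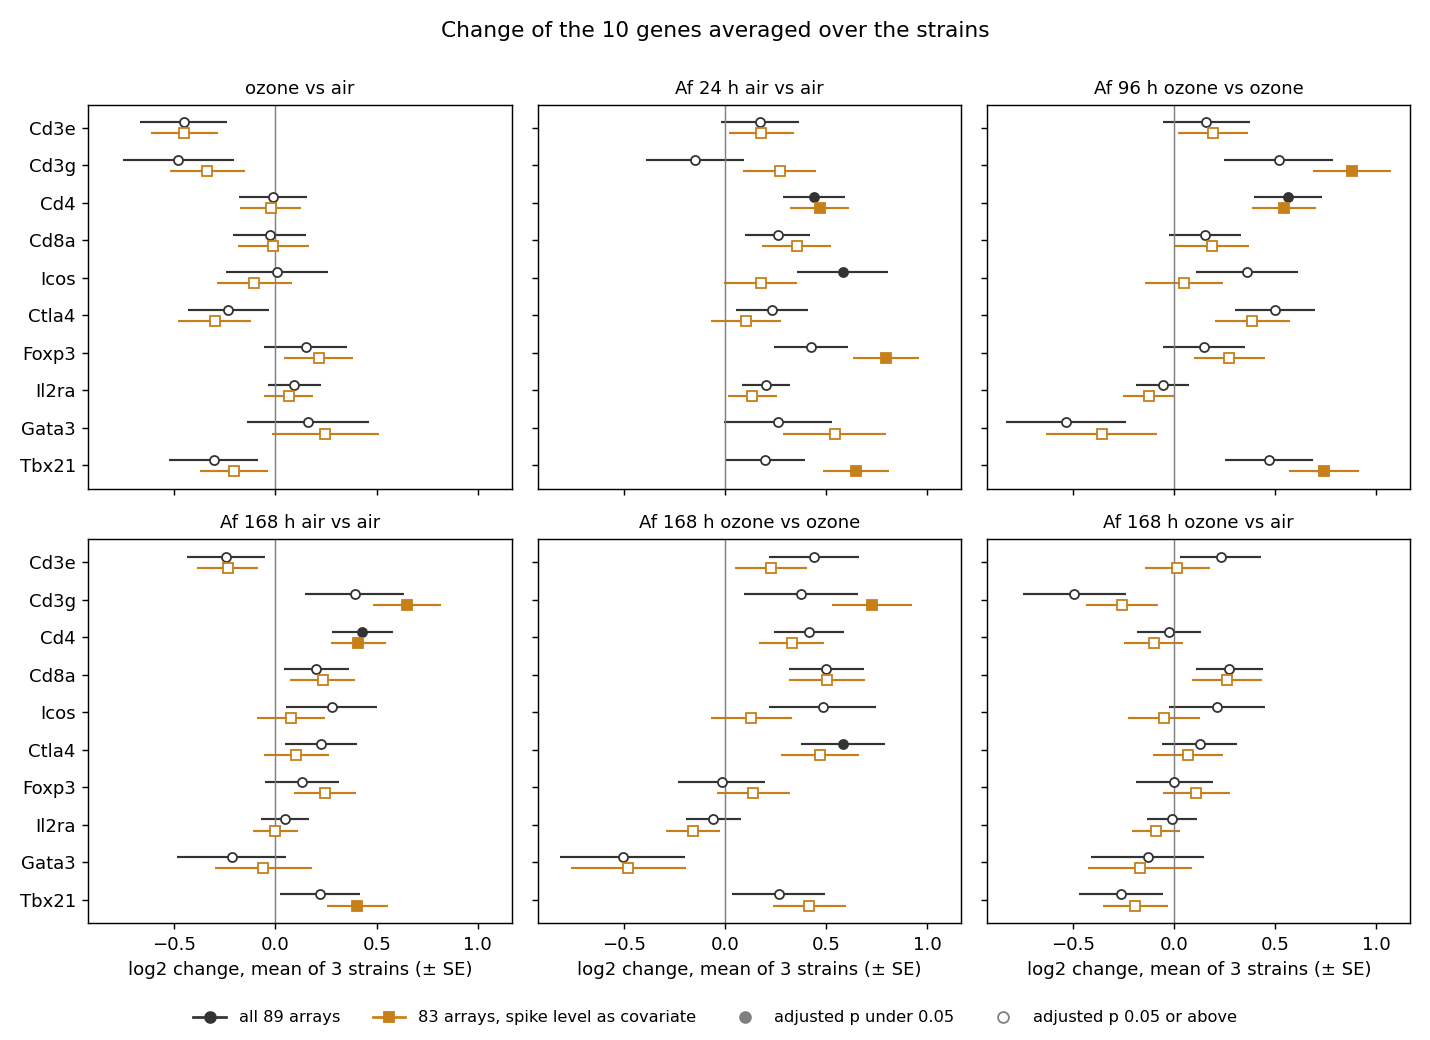
Log2 change averaged over the 3 strains (horizontal axes, bars of 1 SE) for the 10 genes (vertical axes), 1 panel for each of 6 comparisons, the last being Af with ozone against Af with air at 168 h. Circles are the fit with all 89 arrays and squares the adjusted fit of 83 arrays, filled where the adjusted p was under 0.05. Cd4 is filled in both fits in 3 panels, at 0.43 to 0.56 and at 0.41 to 0.54, whereas the filled values of Foxp3, Tbx21 and Cd3g are those of the adjusted fit.

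RNA quality moved with challenge as well. The gap between the beta-actin probe sets for the 3′ and the 5′ end of the transcript, which widens as RNA breaks down or as amplification shortens it, was 2.46 to 3.08 by group mean in the Af groups and 1.59 to 1.88 after air alone. After ozone alone it was 2.75 in SP-D-/-, 2.16 in BALB/c and 1.72 in C57BL/6 lungs. Its part in the differences was tested only as a covariate beside the control level, where 8 of 60 strain-averaged member tests were called. Without the 6 arrays, that fit ended the Cd4 calls at 24 h (0.34, adjusted p = 0.189) and at 168 h with air (0.29, adjusted p = 0.307), while Cd4 at 96 h with ozone stayed past the threshold (0.47, adjusted p = 0.0422). Some arrays also matched their own group poorly, the lowest correlations with the group median being 0.57 for C57BL/6 replicate 5 at 168 h with ozone and 0.62 for BALB/c replicate 4 at 24 h.

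Genes of the same pathways, from lists chosen with earlier results known, placed the members in context. Of 8 tested genes of Th2 cells and type 2 innate lymphoid cells, 5 were higher and 1 lower 24 h after Af averaged over strains, with a median of 0.56 on the log2 scale, against 20.7% of all genes higher and 23.5% lower. In the adjusted fit 3 were higher and 0 lower, with a median of 0.35, against 30.7% of all genes called in either direction. The shares of all genes at later exposures were 6.86% higher and 7.15% lower at 168 h with air, 7.61% and 6.05% at 96 h with ozone, and 7.19% and 8.22% at 168 h with ozone. Il13, the cytokine that drives mucus and airway hyperreactivity, was higher by 1.04 ± 0.15 (adjusted p = 1.49e-07), with 0.86 in SP-D-/-, 0.99 in BALB/c and 1.29 in C57BL/6 lungs. Il4, the cytokine that switches B cells to IgE, which was singled out after its values were seen, was higher by 0.50 ± 0.13 (adjusted p = 0.00139). Il13 was also higher at 96 h with ozone (0.57 ± 0.17) and at 168 h with ozone (0.63 ± 0.18), the last of which was lost in the adjusted fit (0.41, adjusted p = 0.0533). Gata3 itself was not called at any of these exposures.

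Regulatory T cell genes went in both directions. Of 9 tested, 5 were higher and 3 lower at 24 h, with a median of 0.49. Tnfrsf9, the costimulatory receptor 4-1BB, gave the largest rise, 1.87 ± 0.22 averaged over strains (adjusted p = 3.33e-10), with 1.23 in SP-D-/-, 1.97 in BALB/c and 2.40 in C57BL/6 lungs. Tnfrsf4, the costimulatory receptor OX40, was higher by 0.75 ± 0.18 (adjusted p = 0.000682). Nrp1, a semaphorin receptor that endothelial cells also express strongly, was lower, with log2 changes of -1.21 at 24 h, -1.52 at 96 h with ozone and -1.67 at 168 h with ozone. Activated helper T cells also use Tnfrsf9 and Tnfrsf4, and Tnfrsf9 was still higher at 96 h with ozone, by 0.94.

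Of 14 tested genes of the T cell receptor and its signalling, 4 were higher and 2 lower at 24 h, with a median of 0.08, and 1 was higher and 0 lower at each later exposure. Ubash3a, a phosphatase that dampens receptor signals, was higher by 0.86 ± 0.25 at 24 h, a call lost in the adjusted fit (0.55, adjusted p = 0.0741), and Cd27, a costimulatory receptor, was lower (-0.73 ± 0.17). Lat, the adaptor that links the receptor to downstream enzymes, was higher at 24 h (0.69) and at 96 h with ozone (0.86 ± 0.24, adjusted p = 0.0096). Cd8b1, the partner chain of Cd8a, was higher at 168 h with ozone (0.62 ± 0.17, adjusted p = 0.00823), and it too was at its highest on the SP-D-/- array with Cd8a at 9.04, where it read 6.43 against a median of 4.24 over the others. Cd247, the zeta chain of the receptor, was higher in SP-D-/- lungs of that exposure (1.22 ± 0.36, adjusted p = 0.0405).

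Among naive T cell genes, 4 were tested, of which 0 were higher and 2 lower at 24 h. S1pr1, the receptor by which T cells leave lymph nodes and which endothelium expresses strongly, was lower at all 4 Af exposures, with log2 changes of -1.33 ± 0.20 at 24 h, -1.39 at 96 h with ozone, -1.61 at 168 h with air and -1.16 at 168 h with ozone. The lung tissue genes moved the same way, with 0 of 5 higher and 3 lower at 24 h and a median of -0.79. Pecam1, an endothelial adhesion molecule, was lower there (-1.17). The part of endothelial RNA in the falls of S1pr1 and Nrp1 was not tested.

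Among 10 costimulatory genes, 1 was higher and 2 lower at 24 h. Pdcd1lg2, a ligand of the inhibitory receptor PD-1, was higher by 1.07 ± 0.20 (adjusted p = 1.83e-05). Icosl, the ligand of ICOS, was lower (-1.10 ± 0.25, adjusted p = 0.000261), while Icos was higher with all arrays. Pdcd1, the gene of PD-1 itself, was higher at 96 h with ozone (0.59) and at 168 h with air (0.43). Proliferation genes were mostly higher, with 3 of 4 higher at 24 h (median 1.11) and 4 of 4 at 96 h with ozone (median 1.598), among them Mki67 at 1.31 at 24 h.

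Lists of other cells that could carry these transcripts were counted at 24 h in the same way. Of 6 Th1 genes 1 was higher and 2 lower, of 4 Th17 and gamma-delta T cell genes 1 and 1, of 8 NK cell genes 2 and 1, of 6 B cell genes 1 and 0, and of 12 myeloid genes 3 and 2. The adjusted fit called 30.7% of all genes at 24 h in either direction, the share to set beside its counts. It gave 6 higher and 2 lower of the myeloid genes, with a median of 0.53 against -0.02 with all arrays, and 2 higher and 0 lower of the B cell genes, with a median of 0.44 against -0.27. In that fit 1 Th1 gene was higher and 1 lower, 0 Th17 and gamma-delta T cell genes were called, and 2 NK cell genes were higher and 0 lower. Of the lists described before, it called 4 T cell receptor genes higher and 1 lower (median 0.37), 5 regulatory T cell genes higher and 2 lower (median 0.39), 2 costimulatory genes higher and 1 lower, 4 proliferation genes higher, and 2 naive T cell and 3 lung tissue genes lower. The part of myeloid and B cell RNA in the member differences was not tested. After ozone alone 0 genes of any of these lists were called in either direction, against 0.119% of all genes averaged over strains. Between strains, Thy1, a surface protein of T cells and also of fibroblasts, was higher in SP-D-/- than C57BL/6 lungs 96 h after Af with ozone. The difference was 2.95 ± 0.57 with all arrays (adjusted p = 0.00105), in the comparison where Cd3g and Gata3 were called. Of the 14 T cell receptor genes tested there, Thy1 alone was called (list median 0.20), against 16.2% of all genes. Of 5 lung tissue genes 2 were higher there (list median 0.87).

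The genes with the most similar pattern to each member were taken as the 3 highest Pearson correlations over the 18 group means, which share arrays, control level and strain. Tbx21 was closest to Selplg (r = 0.90), Gpr35 (0.87) and Arhgap4 (0.86). Cd4 followed Rps27l (0.89), N4bp1 (0.87) and Wbp4 (0.86), and Ctla4 followed Slc25a33 (0.89), Hsd17b6 (0.86) and Katnal2 (0.86). Cd8a was closest to Rag1 (0.88), Rnf222 (0.88) and Dntt (0.87), a likeness that includes the group with the array described above. Cd3g was closest to Gng10 (0.85), Cpq (0.82) and Gja4 (0.82), Foxp3 to Nans (0.84), Farsb (0.84) and Tarbp2 (0.79), Gata3 to Mtap (0.80), Washc2 (0.79) and Hoxa5 (0.78), and Icos to Nmrk1 (0.80), Ltb4r1 (0.77) and Plcl2 (0.77). Cd3e was closest to C1qtnf4 (0.79), Alpk2 (0.68) and Zfp563 (0.68), and Il2ra to Zfp111 (0.76), Samt2b (0.76) and Scai (0.75).

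Among the members themselves the group means moved together only in part. The highest correlation was between Cd8a and Ctla4 (r = 0.81 over 18 groups), which both peak in the SP-D-/- group 168 h after Af with ozone. The Cd8a peak was set by 1 array at 9.04, while the highest Ctla4 value of the group, 6.47, was on another array. Cd4 went with Icos (0.56) and Ctla4 (0.54), Gata3 with Foxp3 (0.55), and Cd8a ran opposite to Gata3 (-0.46). These values describe the groups and have no test.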

How the data were processed

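RNA of mouse lung lobes was amplified with the NuGEN system and hybridized to GeneChip HT Mouse430PM arrays, per the labels' protocols. The authors deposited normalized log2 signals for 45141 probe sets on 89 arrays, and the normalization software is not given in the sources used here. Of the probe sets, 28898 had 1 gene symbol, 551 several and 15692 none. Each of 17097 genes was read by the probe set with its highest mean, and a gene was tested if its log2 signal passed 4.4481, the 40th percentile, on at least 4 arrays. limma 3.58.1 in R 4.3.3 fitted 18 group means to all arrays, and p-values were adjusted by Benjamini-Hochberg over the 15065 tested genes of each comparison, with a threshold of 0.05. Tables and figures used Python 3.11.15, numpy 2.4.6, pandas 2.3.3 and matplotlib 3.10.9. The number of arrays limits the precision.

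The member genes and the gene lists were chosen with earlier results of these data known. Every member is named, each with its 3 most correlated genes, and of each list at most the 3 called genes with the largest absolute change per comparison. A wild-type label was doubted below an Sftpd signal of 9 and an SP-D-/- label above 8, or where the index of 40 strain genes, 17 of them higher in BALB/c, had the wrong sign. The highest correlation between any 2 arrays was 0.992, so none was counted as a duplicate. Same-numbered arrays were checked for pairing: every pair's deviations correlated above 0.1 only for C57BL/6 168 h with ozone against 168 h with air (4 pairs, mean 0.337, with 2 arrays closest to their own number) and for BALB/c against C57BL/6 at 168 h with air (4 pairs, mean 0.256, with 1). The labels do not say what a number shares, and it is a block only in an alternative.

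Alternatives were cyclic loess, the mean of a gene's probe sets, no filter, only the groups compared, the replicate block, the doubted arrays left out, the control level and the actin gap as covariates, and each array left out in turn. The strain averages and the other probe sets were added after seeing the data. The fit was tested on simulated data in which 100 genes changed by 0.5 and 100 by 1 on the log2 scale. In the single comparisons tried, 0 to 2% of the changes of 0.5 and 15 to 27% of those of 1 were called. For the average over strains at 24 h after Af these shares were 21% and 70%. The simulation changed only these genes of 15065 and drew the noise of each gene independently. In the data, the same comparisons called 3.18% to 44.3% of genes, and the Benjamini-Hochberg cutoff depends on how many genes change. The simulated shares are therefore not the power of the real comparisons. A difference that was not called is not shown to be absent.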

Additional observations from a re-analysis of the deposited data

Results flagged for a closer look

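In 13 of 170 tests, each of 1 member gene in 1 group of 4 to 6 arrays, 1 array lay far from the others by Dixon's test. Chance gives about 1 in 20. The tests of different genes share arrays and are not independent. Cd3e read 9.912 on C57BL/6 replicate 5 at 168 h after Af with ozone, where the other 5 lay between 6.88 and 7.29, an array whose strain label is in doubt. Cd8a read 9.036 on SP-D-/- replicate 3 at 168 h after Af with ozone, where the others lay between 5.58 and 6.10, and 5.129 on BALB/c replicate 6 after air, against 5.51 to 5.63. Cd3g read 4.096 on SP-D-/- replicate 4 at 96 h after Af with ozone, below the 5.71 to 6.59 of the others.

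C57BL/6 replicate 5 after ozone alone stood apart in 3 members. Its Gata3 was 3.229 against 5.0 to 5.44, its Icos 7.621 against 5.03 to 5.17 and its Ctla4 5.964 against 4.69 to 5.01. Its control level was 11.9. C57BL/6 replicate 5 after air alone had Icos at 7.6, against 5.003 to 5.59, and a control level of 11.73. The part of the control level in these values was not tested on single arrays.

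Ctla4 was also high on SP-D-/- replicate 3 after air (5.941, others 4.94 to 5.08) and on C57BL/6 replicate 6 at 168 h after Af with ozone (6.853, others 4.84 to 5.43). Foxp3 was low on BALB/c replicate 1 after air (5.267, others 5.58 to 5.69). Il2ra read 3.346 on C57BL/6 replicate 2 after ozone, others 3.86 to 4.11, all below the detection level, and Tbx21 4.789 on SP-D-/- replicate 3 after ozone, others 3.99 to 4.12.

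The change of Cd3g from ozone alone to 96 h after Af with ozone was greater in SP-D-/- than in C57BL/6 lungs. The gap was 1.589 in limma's interaction test with all arrays (adjusted p = 0.039), where 27.4% of genes were called. In the adjusted fit the gap was 0.03 (adjusted p = 0.987). Cd3g was the only member with a called difference in response with all arrays, while Il2ra was also called without the doubted arrays.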

How the results depend on the processing

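Counts of called member tests are compared here with those from all arrays. At 24 h after Af (1 call) the control level as a covariate gave 2, also leaving out the doubted arrays 4, and adding the replicate block 5. At 168 h with air (0) the fits with the control level, without the doubted arrays, gave 1, and so did those adding the actin gap or the replicate block. At 96 h with ozone (1) the fit with control level and replicate block gave 0. At 168 h with ozone against ozone (1) the mean of probe sets, no filter and only the groups compared gave 0, the control level 2, with or without doubted arrays or the actin gap, and with the replicate block 4. For 168 h against 24 h (0) leaving out doubted arrays or adding the control level gave 1, and both 2, as did adding the actin gap or the replicate block. For SP-D-/- against C57BL/6 (2), 5 were called without doubted arrays, 0 with the control level and 1 with only the groups compared. For BALB/c against C57BL/6 (0), 1 was called without doubted arrays and 1 with control level and replicate block. The SP-D-/- difference in response (1) gave 2 with the replicate block or without doubted arrays and 0 in the 4 fits with the control level. Averages over strains (5) gave 8 with the control level or with the actin gap, 10 with the control level without doubted arrays, and 9 with the replicate block added. The replicate block alone gave 4 there and, apart from the SP-D-/- difference in response, left the other counts as they were. The Cd3g difference in response turned to -0.08 (adjusted p = 0.974) with control level and actin gap. Apart from the settings' own construction, the causes were not tested.

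Leaving out 1 array at a time gave 0 to 2 calls at 24 h, at 96 h with ozone, at 168 h with ozone against ozone and in the SP-D-/- difference in response, 0 to 3 for SP-D-/- against C57BL/6, 0 to 1 for ozone added at 168 h, 3 to 7 over strains, and 0 elsewhere. Signals near the detection level limit Il2ra and Tbx21.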
